A study of Mus musculus with 24 samples.

Results

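Whole kidneys of TgUmodwt female mice were compared at 2 months and at 1 month of age, with 4 arrays of different mice at each age. These are the 8 of 24 arrays in the series that the labels give as female, wild type transgene and 2 months or 1 month, and no measured value entered their choice. All 8 mice had the FVB background and carried a *Umod* transgene encoding wild type uromodulin with an HA-tag, driven by a fragment of the mouse *Umod* promoter. The series uses this line as the control for TgUmodC147W, which carries the mutant transgene, and no kidney of a mouse without a transgene was analysed here. The comparison is therefore of ages within the control line, in females only and at a pair of ages only. The 4 arrays of an age are biological replicates by their labels, and the labels do not say whether mice of the same number were littermates or handled together. Each mouse gave 1 total kidney RNA, so that a lower signal from fewer cells of a type and from less RNA per cell cannot be told apart.

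The mouse kidney is still growing after weaning. New nephrons are no longer made, but tubules lengthen by cell division, the interstitium lays down matrix, and tubular cells raise the transporters and drug-handling enzymes of the adult organ. Puberty falls between these ages in the mouse, and many kidney enzymes and transporters of rodents differ between the sexes.

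Signals are normalized log2 intensities, on which a difference of 1 is a factor of 2, and differences are given as 2 months minus 1 month. A probe was kept if its detection p-value, which sets it against the negative controls of the array, was under 0.01 on at least 1 of the 8 arrays. This left 18082 probes and 9752 named genes, each gene standing by its brightest expressed probe, while 2931 further expressed probes are unnamed here. Detected probes made up 35.8 to 37.6% of all probes at 2 months and 35.9 to 36.8% at 1 month. The median intensity before normalization was 139.7 to 176.6 at 2 months and 114.6 to 130.8 at 1 month, without overlap, and the arrays were brought to a common distribution. The BeadChip holds 6 arrays, and which arrays shared a chip is not given in the sources used here, so that chip and age cannot be told apart. *Xist*, the noncoding RNA of the inactive X chromosome, measured 12.14 to 12.51 at 2 months and 11.87 to 12.17 at 1 month, so that all 8 arrays carried it. *Umod*, the secreted protein of the thick ascending limb and the transgene itself, measured 15.66, 15.92, 15.76 and 15.87 at 2 months, against 15.83, 15.85, 15.80 and 15.82 at 1 month. Its difference was -0.02 (limma, adjusted p = 0.937) near the highest normalized value on any array, 16.02.

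Age was the main axis of the 8 arrays. The first principal component held 35.6% of the variance and scored 15.5 ± 6.7 at 2 months and -15.5 ± 6.3 at 1 month (mean ± SD, n = 4 each), with an exact two-sided permutation p of 0.0286, the smallest that 4 against 4 arrays can give. With each probe scaled to unit variance the first component held 28.3% and did not separate the ages (exact p = 0.343). By limma with Benjamini-Hochberg adjustment over all 18082 probes, 159 genes were higher at 2 months and 179 were lower at an adjusted p under 0.05, which is 1.63% and 1.84% of the genes tested. At an unadjusted p under 0.05 the numbers were 825 (8.46%) and 794 (8.14%), and counted as probes rather than genes 273 of 18082 were higher (1.51%) and 284 were lower (1.57%) after adjustment. Over 2-fold, 20 genes were higher (0.205%) and 49 were lower (0.502%). These were 9 and 24 in the authors' normalized table, 9 and 24 with no background correction, and 37 and 45 under scaling to a common median. All 4 values of 2 months lay above all 4 of 1 month for 559 genes (5.73%) and below them for 548 (5.62%). Of the called genes, 159 of the 159 higher and 177 of the 179 lower were without overlap. The split of directions depends on the scaling. Under scaling to a common median the median difference of all genes was 0.151 instead of -0.004, and 83.9% of the called genes were higher instead of 47%. The counts also depend on single arrays. The number of higher genes was 104, 79, 82 and 82 without 2-month replicates 1, 2, 3 and 4 and 90, 74, 88 and 129 without 1-month replicates 1, 2, 3 and 4. The number of lower genes was 108 without 2-month replicate 2, 115 without 1-month replicate 2 and 122 to 164 without any other array.

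**Figure D1:**
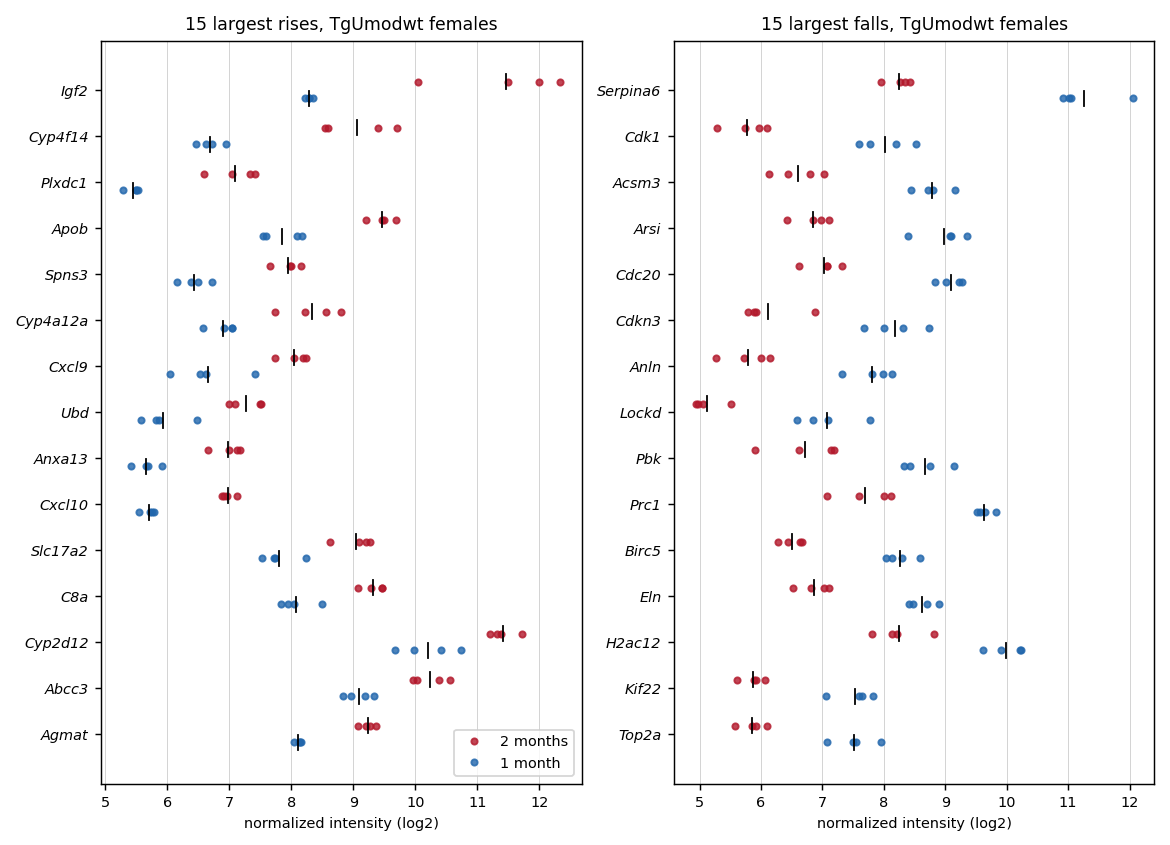
Normalized log2 intensity (horizontal axes) of the 15 genes with the largest rises (left panel) and the 15 with the largest falls (right panel) at an adjusted p under 0.05 without overlap; points are single arrays, 2 months in red above 1 month in blue, and ticks are means of 4. *Igf2* at 2 months spreads most among the rises (10.05 to 12.33), while all 4 of its 1-month values lie between 8.22 and 8.35.

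Genes of mitosis and the spindle were the group that fell most. Of 37 members of the list with a named probe, 22 were expressed. Of these 22, 18 were lower at 2 months and 0 were higher, against 1.84% and 1.63% of all genes, and all 22 differences were below 0. However, 10 of the 22 were detected at 1 age only. A member that entered only through 1 month had little room to come out higher at 2 months, so that these counts partly follow from the filter. The median difference was -1.34, against 0.00 over all genes. The mean signal of the 22 genes was 6.98, 6.56, 6.98 and 6.93 at 2 months, against 8.13, 8.39, 7.98 and 8.06 at 1 month, without overlap. The 4 members that did not pass were *Cenpf*, *Stmn1*, *Foxm1* and *Tubb5*, with differences of -0.18, -0.30, -0.37 and -0.46. The count of 18 was the same without each array in turn, which does not test the effect of the filter. It was 15 when detection on at least 4 of the 8 arrays was required.

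*Cdk1*, the kinase that drives entry into mitosis, measured 5.97, 5.28, 6.09 and 5.74 at 2 months, against 8.20, 8.53, 7.59 and 7.78 at 1 month. It was detected on 4 arrays at 1 month and was not well above background on any at 2 months, so that its fall has only a lower bound. This bound sets the mean of the brighter age against the mean, in the dimmer age, of the higher of the gene's own value and the lowest detected signal of each array, which was 6.46 to 6.67 at 2 months and 6.55 to 6.65 at 1 month. For genes that only some arrays of an age detected, the difference is also given with every value below the lowest detected signal of its array raised to it, and this was also run as a fit across all probes. By the bound *Cdk1* was at least 2.7-fold lower at 2 months (measured difference -2.25, limma adjusted p = 0.00049). *Anln*, a scaffold of the cleavage furrow, was at least 2.33-fold lower (measured means 5.78 and 7.81, limma adjusted p = 0.000631). *Kif22*, a kinesin that moves chromosomes and is no member of the list, was at least 1.92-fold lower (5.87 and 7.53, limma adjusted p = 0.000462). *Top2a*, the topoisomerase that untangles replicated DNA, was at least 1.9-fold lower (5.86 and 7.52, limma adjusted p = 0.000631). With the 10 members of the list that have only a bound set to it, the median of the list was -1.04.

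Other mitotic genes could be measured at both ages on at least some arrays. *Cdc20*, an activator of the ubiquitin ligase that ends metaphase, measured 7.31, 6.61, 7.07 and 7.08 at 2 months, against 9.22, 9.28, 8.84 and 9.01 at 1 month. It was detected on 3 of 4 arrays at 2 months and fell by 2.07 ± 0.15 (SE, limma adjusted p = 0.000189). The differences of its 3 brighter probes were -2.07, -2.12 and -2.25, and that of its dimmest was -0.65. *Prc1*, which bundles microtubules of the central spindle, measured 8.00, 7.08, 8.11 and 7.60 at 2 months, against 9.57, 9.83, 9.51 and 9.64 at 1 month, and was detected on all 8 arrays. It fell by 1.94 ± 0.19 (limma adjusted p = 0.000586). *Birc5*, a subunit of the chromosomal passenger complex, fell by 1.76 (adjusted p = 0.000189), and *Pbk*, a mitotic kinase, by 1.95 (adjusted p = 0.00334), each detected on 2 of 4 arrays at 2 months. With values raised to the lowest detected signal the differences of *Birc5* and *Pbk* were -1.62 and -1.75. *Cdkn3*, a phosphatase of cyclin-dependent kinases that is likewise no member of the list, was detected on 1 array at 2 months, replicate 1, which measured 6.88 while the others lay between 5.78 and 5.91. Its measured difference was -2.06 (adjusted p = 0.00205), and with those values raised it was -1.48 (adjusted p = 0.00191). The remaining called members, from *Kif2c* at -1.39 to *Kif23* at -0.52, include the Aurora kinases *Aurka* (-1.38) and *Aurkb* (-0.93), the checkpoint kinase *Bub1b* (-1.15) and *Plk1* (-1.28).

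Promoters of genes expressed in mitosis are known for the cell cycle genes homology region (CHR), often a fixed distance from a CCAAT box. The promoters below, from RefSeq on GRCm38.p6, are those of the 5 called mitotic genes with the largest falls among those that hold the CHR letters in the window shown. Each runs from 120 bases before to 30 bases after the annotated start, and capitals mark TTTGAA or its reverse TTCAAA (the CHR) and CCAAT or its reverse ATTGG. *Cdk1* lies at chr10:69352883-69353032 on the minus strand, *Cdc20* at chr4:118437314-118437463 on the minus strand, *Anln* at chr9:22389177-22389326 on the minus strand, *Prc1* at chr7:80294331-80294480 on the plus strand and *Top2a* at chr11:99024160-99024309 on the minus strand.
Cdk1: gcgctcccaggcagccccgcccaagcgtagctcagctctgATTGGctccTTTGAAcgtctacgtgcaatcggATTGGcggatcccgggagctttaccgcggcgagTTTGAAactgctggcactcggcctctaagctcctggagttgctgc
Cdc20: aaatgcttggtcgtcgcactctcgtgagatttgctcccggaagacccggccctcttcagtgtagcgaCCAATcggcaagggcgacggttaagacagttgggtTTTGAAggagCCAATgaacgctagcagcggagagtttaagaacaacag
Anln: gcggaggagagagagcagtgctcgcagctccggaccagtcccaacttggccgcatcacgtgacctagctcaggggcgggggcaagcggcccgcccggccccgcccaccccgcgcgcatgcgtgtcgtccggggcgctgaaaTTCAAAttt
Prc1: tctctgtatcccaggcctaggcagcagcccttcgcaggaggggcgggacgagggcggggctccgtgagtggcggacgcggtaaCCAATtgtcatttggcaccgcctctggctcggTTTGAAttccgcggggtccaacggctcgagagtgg
Top2a: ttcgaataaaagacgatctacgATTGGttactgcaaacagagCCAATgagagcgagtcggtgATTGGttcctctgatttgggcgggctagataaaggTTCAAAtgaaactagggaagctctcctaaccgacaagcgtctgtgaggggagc
In these windows *Cdk1* has 2 CHR matches and 2 CCAAT matches, *Cdc20* has 1 and 2, *Prc1* has 1 and 1, *Top2a* has 1 and 3, and *Anln* has 1 CHR match and 0 CCAAT matches. Over the full RefSeq windows, which run from 250 bases before to 50 after the start, 18 of the 22 expressed members had a promoter, and 14 of them (77.8%) held the CHR letters on either strand, against 20.2% of the 27025 genes with a promoter. CCAAT was found in 13 of the 18 (72.2%), against 41.1% of all genes. Of the 16 members with a promoter that were called lower, 13 held the CHR letters and 11 held both. These are matches of letters and not measured sites of binding.

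Genes of DNA replication were lower at 2 months by less than the mitotic ones. Of 23 expressed members 11 were lower and 0 were higher (1.84% and 1.63% of all genes), all 23 differences were below 0, and the median was -0.49 (-0.44 with the 2 members that have only a bound set to it). The mean signal of the list was 7.58 to 7.73 at 2 months, against 8.06 to 8.44 at 1 month, without overlap. The number called depends on single arrays. It was 8, 6, 4 and 7 without 2-month replicates 1, 2, 3 and 4 and 6, 5, 5 and 14 without 1-month replicates 1, 2, 3 and 4, and it was 5 with no filter on dim probes.

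*Mcm6*, a subunit of the helicase that opens replication origins, measured 6.52, 5.74, 6.49 and 6.39 at 2 months, against 7.64, 8.37, 7.53 and 7.59 at 1 month. It was detected on 1 array at 2 months. Its measured difference was -1.49 (limma adjusted p = 0.00371), and with values raised to the lowest detected signal it was -1.17 (adjusted p = 0.00337). *Mcm5*, of the same helicase, fell by 1.02 (adjusted p = 0.00205) and *Uhrf1*, which maintains DNA methylation behind the fork, by 1.34 (adjusted p = 0.00187), both detected on all 8 arrays. *Chaf1a*, a subunit of the chromatin assembly factor CAF-1, was at least 1.39-fold lower at 2 months, where it was not well above background (measured means 6.16 and 7.07, limma adjusted p = 0.0187, but 0.136 with raised values). It lost its call without 2-month replicate 3 or 4 or 1-month replicate 1 (adjusted p up to 0.0552). *Cdt1*, the licensing factor of origins, differed by -0.69 (adjusted p = 0.0294, up to 0.0903 and lost without 2-month replicate 1, 2 or 3 or 1-month replicate 2 or 3). *Mcm7* differed by -0.44 (adjusted p = 0.0307). Its call was lost without any of 6 of the 8 arrays (adjusted p up to 0.0902), all but 2-month replicate 1 and 1-month replicate 4, and under scaling to a common median (-0.30, adjusted p = 0.12).

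Promoters of replication genes are known for sites of E2F factors. The letters searched were TTTCCCGC, TTTCGCGC, TTTGCCGC and TTTGGCGC and their reverses GCGGGAAA, GCGCGAAA, GCGGCAAA and GCGCCAAA. They were found in 7 of the 20 replication genes with a promoter (35%), against 2.6% of all genes with a promoter, and in 1 of the 18 mitotic ones (5.6%). The CHR letters were in 2 of the 20 replication genes (10.0%). The promoters of the called replication genes with E2F letters near the start, *Mcm6* at chr1:128359676-128359825 on the minus strand and *Mcm7* at chr5:138171854-138172003 on the minus strand, are shown with E2F and CCAAT letters in capitals.
Mcm6: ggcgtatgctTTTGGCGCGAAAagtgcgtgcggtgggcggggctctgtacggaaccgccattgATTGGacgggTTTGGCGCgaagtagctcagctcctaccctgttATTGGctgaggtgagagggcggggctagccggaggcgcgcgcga
Mcm7: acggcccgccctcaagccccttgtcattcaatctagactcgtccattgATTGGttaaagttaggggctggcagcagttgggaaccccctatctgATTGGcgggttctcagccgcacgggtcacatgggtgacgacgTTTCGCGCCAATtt
*Mcm6* has 3 E2F matches, of which 2 overlap on opposite strands, and 2 CCAAT matches, while *Mcm7* has 1 E2F match, which overlaps 1 of its 3 CCAAT matches.

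Histone genes were set out as a list by their symbols after their values had been seen, because *H2ac12* was among the largest falls. It measured 8.14, 7.81, 8.81 and 8.22 at 2 months, against 9.62, 9.90, 10.24 and 10.21 at 1 month, and fell by 1.75 ± 0.20 (SE, limma adjusted p = 0.00117). Of 35 expressed histone genes 5 were lower and 0 were higher (1.84% and 1.63% of all genes), with a median of 0.01. The other 4 were *H2ac7* (-1.59), *H2ac15* (-1.42), *H2ac22* (-1.42) and *H2ac24* (-1.39), all H2A genes. These genes are near-identical copies, and their probes may not tell them apart. The choice by symbol does not set histone genes that follow replication apart from others. In TgUmodC147W females 17 of the 35 were higher at 2 months and 6 were lower (6.18% and 6.98% of all genes there).

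**Figure D2:**
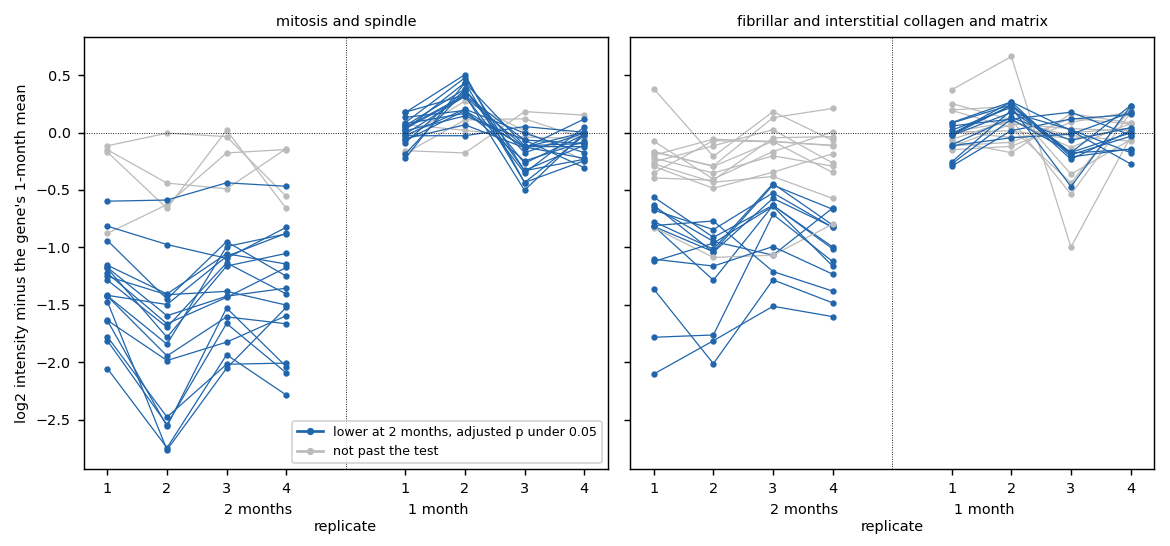
Log2 intensity of each gene minus its mean at 1 month (vertical axis) on each array (horizontal axis, 2-month replicates left of 1-month replicates) for the mitosis and spindle list (left panel) and the fibrillar and interstitial matrix list (right panel). Lines join the values of a gene and give the replicates no order; blue marks members lower at 2 months at an adjusted p under 0.05, 18 of 22 and 13 of 25, and grey marks the others.

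Genes of the interstitial matrix fell together with them. Of 25 expressed genes of fibrillar collagen, elastic fibres and their processing, 13 were lower at 2 months and 0 were higher (1.84% and 1.63% of all genes), with a median of -0.75, or -0.45 with 3 members set to their bound. The count stayed between 13 and 15 without each array in turn. The mean signal of the list was 8.75, 8.60, 8.88 and 8.74 at 2 months, against 9.38, 9.52, 9.25 and 9.42 at 1 month.

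*Eln*, the precursor of elastin, measured 6.52, 6.81, 7.11 and 7.02 at 2 months, against 8.71, 8.89, 8.41 and 8.48 at 1 month. The ages stood apart by more than the spread within either, and *Eln* fell by 1.76 ± 0.15 (SE, limma adjusted p = 0.000245). *Col1a1*, a chain of type I collagen, measured 8.11, 7.46, 8.19 and 7.99 at 2 months, against 9.46, 9.71, 9.28 and 9.44 at 1 month, and fell by 1.54 ± 0.16 (limma adjusted p = 0.000624). *Col3a1*, the chain of type III collagen, was at least 1.53-fold lower at 2 months, where it was not well above background (measured means 5.86 and 7.20, limma adjusted p = 0.00874). *Sparc*, a secreted protein that binds collagen, fell by 1.12 ± 0.09 (adjusted p = 0.000245), and *Lox*, the enzyme that cross-links collagen and elastin, by 1.04 ± 0.18 (adjusted p = 0.0119). The collagen chaperone *Serpinh1* (-0.72), fibronectin, *Fn1* (-0.77), and the microfibril gene *Mfap2* (-0.97) were among the other called members. The small proteoglycans *Dcn* (-0.27), *Bgn* (-0.16) and *Lum* (0.08) did not pass. *Arsi*, which encodes arylsulfatase I, is no member of the list and was among the largest falls (6.84 ± 0.29 at 2 months and 8.98 ± 0.40 at 1 month, SD, n = 4 each, limma adjusted p = 0.00041). A second, dimmer *Arsi* probe fell by 0.81.

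Basement membrane genes fell by less. Of 18 expressed members 9 were lower and 0 were higher (1.84% and 1.63% of all genes), with a median of -0.34. The count was 5 to 7 without any 1 of the 8 arrays and 6 under scaling to a common median, where the median was -0.19. *Col4a2* and *Col4a1*, the chains of type IV collagen that are found in every basement membrane, fell by 0.97 ± 0.12 and 0.81 ± 0.10 (SE, limma adjusted p = 0.0014 and 0.00205). *Col4a1* measured 12.56, 12.50, 12.82 and 12.61 at 2 months, against 13.44, 13.58, 13.23 and 13.47 at 1 month. Among the chains of the mature glomerular membrane, *Col4a5* fell by 0.70 (adjusted p = 0.00191), while *Col4a3* and *Col4a4* differed by -0.33 (adjusted p = 0.182) and 0.00 (adjusted p = 0.997). *Nid2*, which links laminin to collagen IV, fell by 0.73 (adjusted p = 0.00381).

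The cells that could carry these genes were measured by their markers. Of 15 expressed genes of pericytes, mesangium and smooth muscle 0 were called, with a median of -0.19 and a mean signal of 8.43 to 9.03 at 2 months and 8.67 to 8.81 at 1 month. Yet 11 of the 15 differences were below 0. Without overlap 3 were lower and 0 were higher, against 5.62% and 5.73% of all genes. Of 19 expressed endothelial genes 1 was higher and 2 were lower (1.63% and 1.84% of all genes), with a median of -0.15 and a mean signal of 9.76 to 9.89 at 2 months and 9.94 to 10.02 at 1 month, without overlap. Under scaling to a common median the endothelial median was 0.02. *Nos3*, endothelial nitric oxide synthase, fell by 0.59 (limma adjusted p = 0.0127), while its other probes, of similar brightness, gave -0.37 (adjusted p = 0.0963) and -0.33 (adjusted p = 0.113). *Cdh5*, VE-cadherin, differed by -0.37 (adjusted p = 0.049) and lost its call without any 1 of the 8 arrays (adjusted p up to 0.13). *Esm1*, a secreted proteoglycan of endothelium, was higher by 0.72 (adjusted p = 0.0305) and lost its call without 2-month replicate 1, 2 or 3 or 1-month replicate 1 or 2 (up to 0.0922). The part of these cells in the fall of matrix genes was not tested.

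**Figure D3:**
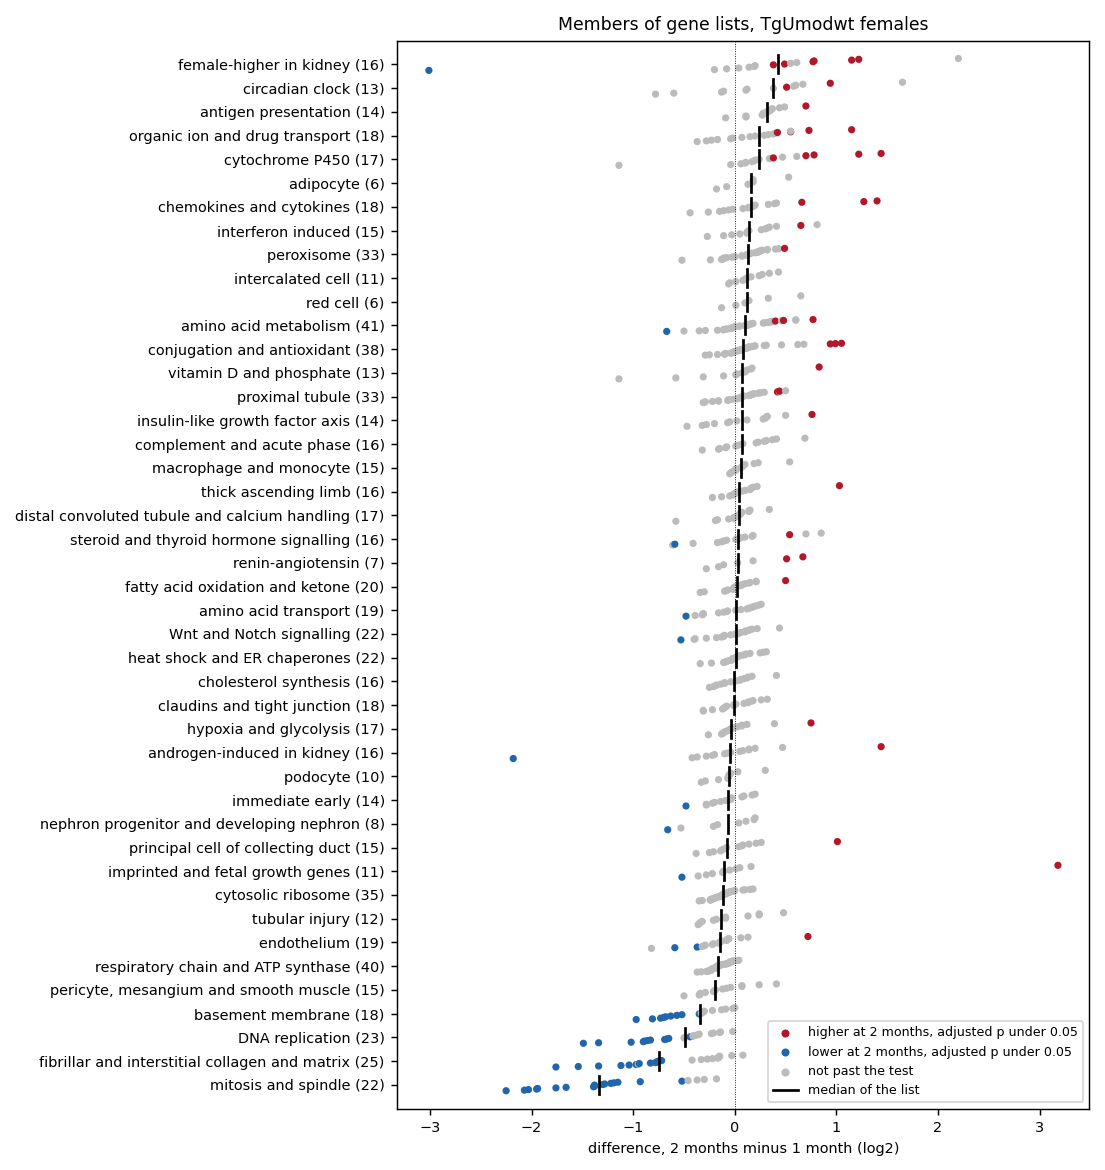
Differences of 2 months minus 1 month on the log2 scale (horizontal axis) for the expressed members of each gene list with at least 6 (number in brackets), ordered by median; red and blue mark members higher and lower at an adjusted p under 0.05 and black ticks are medians. The lists of mitosis, matrix, DNA replication and basement membrane have the lowest medians, -1.34, -0.75, -0.49 and -0.34, and the list of genes higher in female kidney has the highest, 0.43.

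*Igf2* rose more than any other named gene. This paternally expressed imprinted growth factor, known in the mouse for high expression before birth, measured 11.50, 10.05, 11.99 and 12.33 at 2 months, against 8.35, 8.29, 8.28 and 8.22 at 1 month. The rise was 3.18 ± 0.38 (SE, limma adjusted p = 0.0013) on 1 probe, detected on all 8 arrays, and the lowest 2-month value still lay above the highest 1-month one. In 1-month TgUmodwt males the level was 7.72 ± 0.09 (SD, n = 4). Of 11 expressed imprinted and fetal growth genes, *Ndn*, a growth suppressor, was the only other one called and fell by 0.52 (adjusted p = 0.0138, and 0.0529 under scaling to a common median). Of 14 expressed genes of the insulin-like growth factor axis 1 was called, *Igfals*, the subunit that keeps the growth factors in the circulation, which was higher by 0.76 (adjusted p = 0.0244, lost without 6 of the 8 arrays, all but 2-month replicate 2 and 1-month replicate 4, with adjusted p up to 0.0725). Of 8 expressed genes of nephron progenitors and the developing nephron 1 was called, *Ncam1*, an adhesion molecule, which fell by 0.66 (adjusted p = 0.00422). The dimmer *Ncam1* probe differed by -0.01 and the mean of its probes by -0.33 (adjusted p = 0.108). Over all genes 1.63% were higher and 1.84% were lower.

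Genes known to be higher in female than in male mouse kidney had the highest median of the lists, 0.43. Of 16 expressed members 6 were higher and 1 was lower, against 1.63% and 1.84% of all genes. The number higher was 4 to 7 without each array and 10 under scaling to a common median. *Serpina6*, which encodes corticosteroid-binding globulin, was the lower one and the largest fall among all named genes. It measured 8.35, 8.26, 8.43 and 7.96 at 2 months, against 11.02, 12.05, 10.92 and 11.05 at 1 month, and fell by 3.01 ± 0.22 (SE, limma adjusted p = 0.000189), while 1-month TgUmodwt males measured 9.81 ± 0.31 (SD, n = 4). *Cyp2d12*, a cytochrome P450, measured 11.21, 11.72, 11.39 and 11.32 at 2 months, against 10.41, 9.67, 10.73 and 9.98 at 1 month, and rose by 1.22 (adjusted p = 0.0102). *Abcc3*, which exports glucuronides, rose by 1.15 (adjusted p = 0.00243), *Cyp2a5*, a cytochrome P450 that oxidises coumarin, by 0.78 (adjusted p = 0.015, but 0.158 in a single fit over the 24 arrays) and *Kynu*, kynureninase, by 0.77 (adjusted p = 0.0145). *Hao2*, a peroxisomal oxidase of hydroxy acids, was higher by 0.49 (adjusted p = 0.0207, but 0.11 in that single fit) and lost its call without 2-month replicate 3 or 4 or 1-month replicate 1 or 2 (up to 0.0643). In 1-month TgUmodwt males *Cyp2d12*, *Abcc3*, *Kynu* and *Hao2* had means of 8.66, 6.45, 8.74 and 11.41, each below the 1-month females. *Cyp2a5* measured 12.68 ± 0.17 in these males, against 12.46 ± 0.21 in 1-month females (SD, n = 4 each), so that it was not higher in females at that age.

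*Hdc*, histidine decarboxylase, had the largest difference of the list, 2.20, but its ages overlapped. It measured 12.99, 10.88, 13.47 and 13.51 at 2 months, against 9.82, 11.18, 9.17 and 11.87 at 1 month (limma adjusted p = 0.108), and it is named after its values were seen.

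Of 16 expressed genes that androgens induce in mouse kidney 1 was higher and 1 was lower (1.63% and 1.84% of all genes), with a median of -0.05 (0.12 under scaling to a common median). *Acsm3*, an acyl-CoA synthetase, measured 7.02, 6.13, 6.44 and 6.79 at 2 months, where 2 of 4 arrays detected it, against 8.72, 9.16, 8.44 and 8.80 at 1 month. It fell by 2.18 (limma adjusted p = 0.00034), or by 2.00 with raised values, and its dimmer probe fell by 1.88. *Cyp4a12a*, a hydroxylase of arachidonic acid, measured 8.56, 8.80, 7.74 and 8.22 at 2 months, against 7.05, 6.57, 6.92 and 7.05 at 1 month, and rose by 1.44 ± 0.20 (adjusted p = 0.00368). In 1-month TgUmodwt males the levels were 14.80 ± 0.06 for *Acsm3* and 11.44 ± 0.27 for *Cyp4a12a* (SD, n = 4). Among 16 expressed genes of steroid and thyroid hormone signalling, 1 was higher and 1 was lower. *Esr1*, the oestrogen receptor alpha, differed by -0.59 (adjusted p = 0.035, 0.0537 under scaling to a common median) and *Mt1*, a metallothionein induced by glucocorticoids, by 0.54 (adjusted p = 0.0452, 0.0544 with the 8 arrays normalized alone). Each lost its call without any array but 1, which was 1-month replicate 4 (up to 0.0875 for *Esr1* and 0.123 for *Mt1*).

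Of 17 expressed cytochrome P450 genes 5 were higher and 0 were lower (1.63% and 1.84% of all genes), with a median of 0.24, and the number higher was 4 without each array and 9 under scaling to a common median. *Cyp27a1*, the sterol 27-hydroxylase, was higher by 0.70 (limma adjusted p = 0.0216, lost without 2-month replicate 2 or 4 or 1-month replicate 3, up to 0.0693). *Cyp4a14*, an omega-hydroxylase of fatty acids, was higher by 0.38 (adjusted p = 0.0325, lost without any array but 2-month replicate 4, up to 0.104). *Cyp4f14*, which hydroxylates fatty acids and leukotriene B4, is no member of the list and had the second largest rise. It measured 8.55, 8.60, 9.40 and 9.70 at 2 months, against 6.72, 6.62, 6.46 and 6.95 at 1 month, where 3 of 4 arrays detected it, and rose by 2.37 ± 0.24 (SE, adjusted p = 0.000594).

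Of 38 expressed genes of conjugation and antioxidant defence 3 were higher and 0 were lower (1.63% and 1.84% of all genes), with a median of 0.08. The number higher was 2 to 5 without each array (2 without 2-month replicate 2 or 1-month replicate 2, 5 without 1-month replicate 4), 5 in the authors' table, 6 with the replicate block or a trended robust prior, and 7 under scaling to a common median. The glutathione transferases *Gsta1* and *Gsta2* were higher by 1.05 (limma adjusted p = 0.00863) and 0.99 (adjusted p = 0.0169), and *Ugt1a2*, a glucuronosyl transferase, by 0.94 (adjusted p = 0.0158). *Gsta2* lost its call without 2-month replicate 2 or 1-month replicate 2 (up to 0.0561). These families hold close paralogs that share sequence. Of 18 expressed transporters of organic ions and drugs 4 were higher and 0 were lower (1.63% and 1.84% of all genes), with a median of 0.24. The number higher was 2 without 2-month replicate 2, 3 or 4 or 1-month replicate 2 or 3, 3 to 5 without any other array, and 8 under scaling to a common median. They were *Abcc3*, given above, *Abcb1b*, a P-glycoprotein (0.73, adjusted p = 0.00996), *Abcc4*, which exports organic anions and cyclic nucleotides (0.55, adjusted p = 0.0466), and *Slc22a8*, which takes up organic anions from the blood side (0.42, adjusted p = 0.034). *Abcc4* lost its call without any of 6 of the 8 arrays, all but 2-month replicate 1 and 1-month replicate 1 (up to 0.132), and *Slc22a8* without any array but 2-month replicate 1 (up to 0.0951).

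Among 41 expressed genes of amino acid metabolism 3 were higher and 1 was lower (1.63% and 1.84% of all genes), with a median of 0.10. The number higher was 1 without 2-month replicate 4 or 1-month replicate 1 or 2, 2 to 4 without any other array, 6 in the authors' table, 7 with no background correction or a trended robust prior, and 12 under scaling to a common median. Besides *Kynu*, *Gnmt*, which methylates glycine (0.48, limma adjusted p = 0.0294), and *Afmid*, which precedes kynureninase in tryptophan breakdown (0.40, adjusted p = 0.0239), were higher. *Gnmt* lost its call without any array but 2-month replicate 1 (up to 0.0861), and *Afmid* without any of 6 of the 8, all but 2-month replicate 3 and 1-month replicate 3 (up to 0.0703). The dimmer *Gnmt* probe gave 0.42 (adjusted p = 0.181) and the mean of its probes 0.45 (0.0645). The dimmer *Afmid* probes gave 0.27 to 0.52, and only some of them passed (adjusted p = 0.0343 to 0.227). *Phgdh*, the first enzyme of serine synthesis, measured 8.00, 8.07, 8.21 and 7.92 at 2 months, against 8.77, 8.76, 8.67 and 8.67 at 1 month, and fell by 0.67 ± 0.09 (SE, adjusted p = 0.00243). Of 19 expressed amino acid transporters 1 was called, *Slc7a8*, the subunit of a basolateral exchanger (-0.48, adjusted p = 0.0238, 0.0588 under scaling to a common median, lost without any of 6 of the 8 arrays, all but 2-month replicate 4 and 1-month replicate 3, up to 0.0726). *Agmat*, agmatinase, which is in none of the lists, measured 9.27, 9.08, 9.21 and 9.37 at 2 months, against 8.12, 8.15, 8.14 and 8.04 at 1 month, and rose by 1.12 ± 0.09 (adjusted p = 0.000232). Of 20 expressed genes of fatty acid oxidation and ketone formation 1 was called, *Ppara*, the nuclear receptor of that pathway (0.50, adjusted p = 0.0489, lost without any array but 2-month replicate 2, up to 0.129), and of 33 peroxisomal genes 1, *Hao2*.

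Markers of the nephron segments were little different between the ages. Of 33 expressed proximal tubule genes 2 were higher and 0 were lower (1.63% and 1.84% of all genes), with a median of 0.07 and a mean signal of 12.71 to 12.79 at 2 months and 12.64 to 12.74 at 1 month. They were *Slc22a8* and *Slc13a3*, a sodium-coupled carrier of dicarboxylates (0.44, limma adjusted p = 0.0226, lost without any of 6 of the 8 arrays, all but 2-month replicate 4 and 1-month replicate 3, up to 0.08). *Slc17a2*, of a family of phosphate and organic anion transporters, is no member and was among the largest rises. It measured 9.27, 8.62, 9.10 and 9.21 at 2 months, against 7.72, 7.74, 7.53 and 8.23 at 1 month (difference 1.25, adjusted p = 0.00322).

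Of 16 expressed genes of the thick ascending limb, the segment where the transgene is expressed, 1 was called (1.63% of all genes were higher and 1.84% lower). *Foxq1*, a forkhead transcription factor, measured 12.95, 12.61, 12.84 and 12.66 at 2 months, against 11.76, 11.24, 11.81 and 12.13 at 1 month, a rise of 1.03 ± 0.16 (SE, limma adjusted p = 0.00796). Of 15 expressed principal cell genes 1 was called, *Aqp4*, the basolateral water channel. It measured 12.72, 12.33, 12.08 and 12.27 at 2 months, against 11.54, 11.48, 10.85 and 11.48 at 1 month, a rise of 1.01 ± 0.17 (adjusted p = 0.0112). The lists of the distal convoluted tubule (17 expressed genes, -0.58 to 0.34), intercalated cells (11, -0.06 to 0.43), podocytes (10, -0.33 to 0.30) and claudins and tight junctions (18, -0.31 to 0.32) had 0 members past the test in either direction. Their medians were 0.04, 0.12, -0.06 and -0.01, and under scaling to a common median they were 0.20, 0.30, 0.08 and 0.11.

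Among 7 expressed genes of the renin-angiotensin system 2 were higher and 0 were lower (1.63% and 1.84% of all genes). *Ace*, the enzyme that makes angiotensin II, measured 10.42, 10.50, 10.97 and 10.95 at 2 months, against 9.95, 10.01, 9.91 and 10.29 at 1 month (0.67, limma adjusted p = 0.0341). Its dimmer probes gave 0.72 and 0.77, and it lost its call without 2-month replicate 3 or 4 or 1-month replicate 1, 2 or 3 (up to 0.0891). *Mme*, neprilysin, was higher by 0.51 (adjusted p = 0.0413), lost without any of 6 of the 8 arrays, all but 2-month replicate 1 and 1-month replicate 2 (up to 0.105), while its dimmest probe gave -0.04. Of 13 expressed genes of vitamin D and phosphate handling 1 was called, *Fgf1*, a fibroblast growth factor (0.83, adjusted p = 0.0358), lost without any of 6 of the 8 arrays, all but 1-month replicates 3 and 4 (up to 0.0842). Of 17 expressed genes of hypoxia and glycolysis 1 was called, *Egln3*, a hydroxylase of the hypoxia-inducible factors (0.75, adjusted p = 0.00968).

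Interferon-induced chemokines were higher at 2 months. *Cxcl10*, a ligand of the chemokine receptor CXCR3 on T cells, measured 7.12, 6.89, 6.91 and 6.97 at 2 months, against 5.73, 5.78, 5.75 and 5.54 at 1 month. It was not well above background at 1 month, so that it was at least 1.31-fold higher at 2 months (measured difference 1.27 ± 0.09, SE, limma adjusted p = 0.000189). *Cxcl9*, a ligand of the same receptor, measured 8.19, 7.73, 8.04 and 8.24 at 2 months, against 6.53, 6.04, 7.42 and 6.63 at 1 month, where 2 of 4 arrays detected it, and rose by 1.40 (adjusted p = 0.0116), or by 1.26 with raised values (adjusted p = 0.00606). *Il18*, an interleukin that induces interferon gamma, was at least 1.18-fold higher (measured means 6.82 and 6.16, adjusted p = 0.00793, but 0.219 with raised values). *Ubd*, a ubiquitin-like protein induced by interferon gamma, is in none of the lists and was at least 1.62-fold higher (measured means 7.28 and 5.93, adjusted p = 0.00358).

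Of 18 expressed chemokines and cytokines 3 were higher and 0 were lower (1.63% and 1.84% of all genes), with a median of 0.16 (0.04 with 6 members set to their bound), and the number called was 3 without each array in turn. Of these 3, *Cxcl10* and *Il18* were detected on 4 arrays at 2 months and 0 at 1 month. They entered only through the age where they were high, which leaving out arrays does not test. With raised values the limma adjusted p was 0.0232 for *Cxcl10* and 0.219 for *Il18*. Of 15 expressed interferon-induced genes 1 was higher, *Gbp2*, a guanylate-binding protein (0.65, limma adjusted p = 0.0193), lost without 2-month replicate 2 or 4 or 1-month replicate 1 or 2 (up to 0.0606). Of 14 expressed genes of antigen presentation 13 differences were above 0, with a median of 0.32, and 1 was called. This was *Ciita*, the regulator of MHC class II genes (6.53 and 5.83, adjusted p = 0.0301, but 0.714 with raised values), which 1 array at 2 months and 0 at 1 month detected. It lost its call without 2-month replicate 2 or 1-month replicate 1, 2 or 3 (up to 0.0829), and no fold is given because its bound is 0.

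Leukocytes were measured by their markers beside these genes. Of 15 expressed macrophage and monocyte genes 0 were called, with a median of 0.06 and a mean signal of 7.94 to 8.26 at 2 months and 7.87 to 8.14 at 1 month. Of T cell genes 2 of the 10 with a named probe were expressed, of B and plasma cell genes 2 of 8 and of granulocyte genes 1 of 10, and none of these 5 was called by limma. *Cd274*, the checkpoint ligand PD-L1, was higher by 0.89 (adjusted p = 0.0332) and is named after its values were seen. It lost its call without any of 6 of the 8 arrays, all but 2-month replicate 1 and 1-month replicate 4 (up to 0.0873). For *Cd86*, a costimulatory ligand of antigen-presenting cells that was also named after its values were seen, no fold is given, since 1 array at 2 months and 0 at 1 month detected it and its bound is 0. Its adjusted p of 0.0281 was 0.0951 in the authors' table, 0.103 with no background correction, 0.0537 with an offset of 50, 0.108 with a trended robust prior, 0.0501 with no detection filter and 0.925 with raised values, and it was up to 0.0794 without 6 of the 8 arrays, all but 2-month replicate 3 and 1-month replicate 1. The part of leukocytes in the rise of the chemokines was not tested.

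Genes of the circadian clock varied widely among the arrays. Of 13 expressed members 2 were higher and 0 were lower (1.63% and 1.84% of all genes), with a median of 0.38. *Per3*, a repressor of the clock, measured 8.06, 7.80, 8.13 and 7.75 at 2 months, against 7.22, 7.46, 6.77 and 6.54 at 1 month (0.94, limma adjusted p = 0.0229). It lost its call without 2-month replicate 1 or 3 or 1-month replicate 3 (up to 0.0674), and the mean of its probes gave 0.61 (adjusted p = 0.0557). *Tef*, an output factor of the clock, differed by 0.51 (adjusted p = 0.0479), lost without any array but 2-month replicate 1 (up to 0.131).

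The output factor *Dbp* and the activator *Arntl*, whose rhythms are known to run opposite to each other, are named after their values were seen. *Dbp* measured 12.01, 12.55, 13.32 and 13.13 at 2 months, against 11.38, 11.79, 11.49 and 9.74 at 1 month, a difference of 1.65 (limma adjusted p = 0.0604). *Arntl* measured 7.92, 7.74, 7.74 and 7.79 at 2 months, against 8.12, 8.27, 8.77 and 9.16 at 1 month, a difference of -0.78 (adjusted p = 0.0577). Both were without overlap between the ages. At 1 month, replicate 4 had the lowest *Dbp* and the highest *Arntl* of the 8 arrays. In 1-month TgUmodwt males the levels were 13.65 ± 0.11 for *Dbp* and 5.64 ± 0.24 for *Arntl* (SD, n = 4). Both means lay beyond the 2-month females, on the side away from the 1-month females. In TgUmodC147W females the age differences were 0.35 for *Dbp* and -0.08 for *Arntl* (limma adjusted p = 0.188 and 0.864), and the clock list had a median of -0.16. The time of day at which kidneys were taken is not given in the sources used here, and its part in these differences was not tested.

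**Figure D4:**
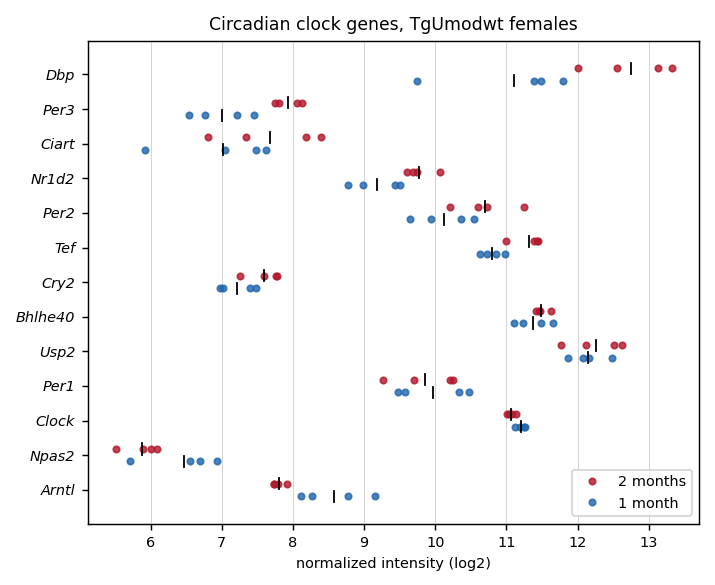
Normalized log2 intensity (horizontal axis) of the 13 expressed clock genes, ordered by their difference; points are arrays, 2 months in red above 1 month in blue, and ticks are means of 4. *Dbp* at the top is higher and *Arntl* at the bottom lower at 2 months without overlap, and *Per3* and *Tef* are the members past the test.

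Several of the largest rises belong to no list. *Plxdc1*, a membrane protein first known from tumour endothelium, measured 7.05, 6.59, 7.42 and 7.33 at 2 months, where 3 arrays detected it, against 5.5, 5.29, 5.53 and 5.5 at 1 month, where 0 did. It was at least 1.43-fold higher (measured difference 1.65, limma adjusted p = 0.000567, but 0.0919 with raised values), and its dimmer probe rose by 0.92. *Apob*, apolipoprotein B, measured 9.49, 9.47, 9.20 and 9.69 at 2 months, against 8.10, 7.59, 7.55 and 8.17 at 1 month (1.61, adjusted p = 0.000586). *Spns3*, a membrane transporter of the spinster family, was detected on 4 arrays at 2 months and 1 at 1 month (7.95 ± 0.21 and 6.44 ± 0.24, SD, n = 4 each). Its measured difference was 1.51 (limma adjusted p = 0.00041), and with raised values it was 1.35 (adjusted p = 0.000123). *C8a*, a subunit of the complement attack complex, rose by 1.24 (9.32 ± 0.18 and 8.08 ± 0.29, limma adjusted p = 0.00129). *Anxa13*, an annexin of epithelial cells, was at least 1.32-fold higher (6.98 and 5.67, adjusted p = 0.000631, but 0.073 with raised values). Among the falls, *Lockd*, a long noncoding RNA transcribed near *Cdkn1b*, was at least 1.4-fold lower (5.12 and 7.07, adjusted p = 0.00114, but 0.27 with raised values).

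Other lists had few or 0 members past the test, against 1.63% of all genes higher and 1.84% lower. Of 14 expressed immediate early genes 1 was lower, *Klf4*, a zinc finger factor (-0.48, limma adjusted p = 0.0314, lost without any array but 1-month replicate 4, up to 0.224), and of 22 genes of Wnt and Notch signalling 1, *Sfrp2*, a secreted Wnt antagonist (6.00 and 6.54, adjusted p = 0.0356, but 0.882 with raised values, detected on 0 arrays at 2 months and 2 at 1 month, lost without any array but 1-month replicate 2, up to 0.0891). Among the 40 expressed genes of the respiratory chain and ATP synthase 0 passed, and 38 differences were below 0 with a median of -0.17, which was -0.02 under scaling to a common median. The 35 cytosolic ribosome genes likewise had a median of -0.12, or 0.02 under that scaling, with 0 past the test. The lists of complement and acute phase (16 expressed, median 0.07), cholesterol synthesis (16, -0.01), heat shock and endoplasmic reticulum chaperones (22, 0.01), tubular injury (12, -0.14), red cells (6, 0.12), adipocytes (6, 0.16) and skeletal muscle (2, 0.32, or 0.00 with both set to their bound) also had 0 past the test. Of 9 adrenal cortex genes with a named probe 0 were expressed.

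The same ages were compared in TgUmodC147W females, 4 arrays each, which share no array with the comparison above. There 618 genes were higher and 699 lower at 2 months (6.18% and 6.98% of 10008 genes). Their 1-month replicate 2 lacked *Xist* (4.85, as in males), and without it the counts were 412 and 438. Of the 159 genes higher in TgUmodwt, 153 were expressed in TgUmodC147W, 146 had the same sign and 91 were called (72 without that array). Of the 179 lower in TgUmodwt, 177 were expressed, 167 had the same sign and 127 were called (119 without it). The median intensity before normalization in TgUmodC147W was 139.7 to 156.6 at 2 months and 122.8 to 127.9 at 1 month, again without overlap. Which arrays shared a chip is not given here either, so that the shared signs cannot tell chip from age. Mitotic genes had a median of -1.34 in TgUmodwt and -1.18 in TgUmodC147W, interstitial matrix genes -0.75 and -0.65, and replication genes -0.49 and -1.11. Without the array that lacks *Xist* the TgUmodC147W medians were -1.15, -0.48 and -1.01. With the members that have only a bound set to it, the TgUmodwt medians were -1.04, -0.45 and -0.44. *Cdk1*, *Anln* and *Top2a* were detected on 4 arrays at 2 months in TgUmodC147W and on 0 in TgUmodwt. The mitotic and matrix medians therefore do not show in which line the fall was larger.

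A test of the difference between the age differences (limma interaction over 16 arrays) called 132 of 10144 genes, 50 above 0 (0.493%) and 82 below 0 (0.808%), and 73 without the array that lacks *Xist*. The count ran from 58 without TgUmodwt 1-month replicate 1 to 305 without TgUmodC147W 1-month replicate 4, and it was 62 to 87 without TgUmodwt 2-month replicate 2, 3 or 4 or 1-month replicate 4 or TgUmodC147W 2-month replicate 3 or 4 or 1-month replicate 3. With values raised to the lowest detected signal it was 187, of which 116 were among the 132. Of the genes called in TgUmodwt, 15 of the higher and 11 of the lower were among them. *Serpina6* differed by -3.01 in TgUmodwt and -4.94 in TgUmodC147W (interaction adjusted p = 0.00593, or 0.0143 without that array). *Cyp2a5* rose by 0.78 and 3.82 (adjusted p = 0.00593, or 0.0108). *C8a* and *Cyp4f14* were not well above background on any TgUmodC147W array at 1 month (means 5.53 and 5.03). *C8a* rose by 1.24 in TgUmodwt and, with values raised to the lowest detected signal, by 2.99 in TgUmodC147W (interaction adjusted p = 0.000131). *Cyp4f14* differed with raised values by 2.32 in TgUmodwt and 2.45 in TgUmodC147W, and its interaction (adjusted p = 0.0264 on the measured values) did not pass (-0.13, adjusted p = 0.912). *Agmat* rose by 1.12 and 2.16 (0.0249, or 0.0216) and *Slc17a2* by 1.25 and 2.49 (0.0444, or 0.0788). *Cdc20* differed by -2.07 and -1.19 (0.0486, or 0.0884) and *Cdt1* by -0.69 and -1.59 (0.0235, or 0.0502). For *Igf2* the rises were 3.18 and 3.97 and the interaction did not pass (-0.78 ± 0.47, SE, limma adjusted p = 0.54).

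**Figure D5:**
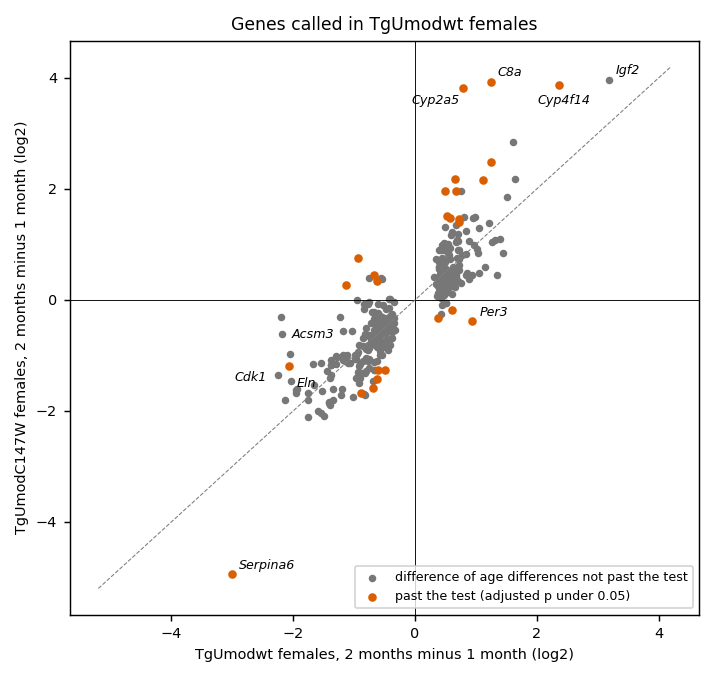
Difference of 2 months minus 1 month on the log2 scale in TgUmodwt females (horizontal axis) and in TgUmodC147W females (vertical axis) for the genes called in TgUmodwt and expressed in both; orange marks the genes past the interaction test on the measured values, which include *Cyp4f14*, and the dashed line marks equal differences. *Igf2* lies at 3.18 and 3.97 and *Serpina6* at -3.01 and -4.94.

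The largest interactions included genes that differed little with age in TgUmodwt. The P450 *Cyp2a4* differed by 0.61 in TgUmodwt (limma adjusted p = 0.0625) and 4.00 in TgUmodC147W, and the carboxylesterase *Ces1f* by -0.13 and 3.67, both detected on all 16 arrays. Their interactions were -3.39 (adjusted p = 0.0111, or 0.029 without the array that lacks *Xist*) and -3.80 (0.0182, or 0.0424). The lipid-binding *Sec14l3*, the secretoglobin *Scgb1c1* and the surface protein gene *Ly6f* were detected on 1 of 4 TgUmodC147W arrays at 1 month and on the other 12 arrays. With values raised to the lowest detected signal they differed by 0.57, 0.45 and -0.48 in TgUmodwt and by 4.34, 3.34 and 3.41 in TgUmodC147W. The interactions with raised values were -3.77, -2.89 and -3.89 (adjusted p = 0.00303, 0.00193 and 3e-04), against -4.97, -3.94 and -4.73 as measured. In the other direction *Alas2*, the erythroid enzyme of haem synthesis, differed by 0.65 in TgUmodwt and -1.73 in TgUmodC147W, and *Serpina10*, a protease inhibitor, by 1.06 and -1.02. *Alas2* (2.38, adjusted p = 0.0289, or 0.0658) and *Serpina10* (2.07, 0.0461, or 0.0938) passed only with the array that lacks *Xist*. *Rad51ap2* was detected on 0 arrays at 2 months and 3 at 1 month in TgUmodwt, and on 0 and 4 in TgUmodC147W. With raised values it differed by -0.34 and -2.06, with an interaction of 1.73 (adjusted p = 0.00357), against 1.95 as measured (0.0159, or 0.0374 without that array). *Cyp27b1*, which activates vitamin D, was detected on 1 array at 2 months and 0 at 1 month in TgUmodwt, and on 0 and 4 in TgUmodC147W. Its measured interaction of 1.94 (0.0326, or 0.0213) was 0.87 with raised values and did not pass (adjusted p = 0.25). When other single arrays were left out, on the measured values, *Rad51ap2* and the 5 genes below 0 kept an adjusted p under 0.05 (limma), *Cyp27b1* lost it without TgUmodwt 2-month replicate 2 or 3 or 1-month replicate 1, 3 or 4 or TgUmodC147W 2-month replicate 1, 3 or 4 (up to 0.0685), *Alas2* without 9 of the 16 arrays (up to 0.071) and *Serpina10* without 13 of the 16 (up to 0.0949).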

How the data were processed

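RNA of whole kidneys was measured on the Illumina MouseWG-6 v2.0 array. The deposited table holds, for each probe and array, an intensity as the authors exported it from GenomeStudio without normalization, and a detection p-value that the authors' software computed against negative controls. A second deposited table of the authors' cubic-spline normalized intensities served as an alternative. All deposited columns were mapped to samples (0 unmapped).

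Here neqc (limma 3.58.1, R 4.3.3) estimated the background from the detection p-values, added 16 to the corrected intensities, equalised the distributions of all 24 arrays by quantiles and took log2. The 8 arrays were fitted with limma's lmFit and eBayes, with Benjamini-Hochberg adjustment over all expressed probes, and a gene was called at an adjusted p under 0.05. Rows of the 2 deposited tables were paired by the ranks of their signals on the 24 arrays. Of the pairs, 13666 (30.2%) carried different probe IDs in the 2 tables. The differing IDs belonged to 1 gene for 11179 of these and to different genes for 286. A probe was named only where both deposited tables gave it the same gene, which held for 34043 of 45281 probes. The remaining steps used Python 3.11.15 with pandas 2.3.3 and numpy 2.4.6. The scripts were tested on simulated data. Arrays have no read depth, and their number limits the precision.

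Groups came from the sample titles. Genes were named by rule, as the 15 largest rises and 15 largest falls without overlap, up to 4 called members of each list, the 5 largest interactions in each direction, *Umod* and *Xist*. Lists with 0 members past the test are given by range or median. *Dbp*, *Arntl*, *Hdc*, *Cd274*, *Cd86*, *Lox*, *Cdt1*, *Mcm7*, *Cyp4a14*, the histone genes and other list members were named after their values were seen. The lists and members were chosen with earlier results of these data known.

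Deviations of same-numbered mice of the 2 ages had positive correlations (r = 0.196, 0.119, 0.249 and 0.356 over probes, across-probe values of single pairs), so a fit with the number as a block was run. The labels state no pairing, and the number did not always give the closest match. With 1-month replicate 2, 2-month replicate 1 had r = 0.372, and with 1-month replicate 1, 2-month replicate 2 had r = 0.138. Both were above the same-number values of these 2-month mice. Further alternatives took the authors' normalized table, left the background in, set each array to the same median in place of quantiles, added 50 rather than 16, normalized the 8 arrays by themselves, changed or dropped the detection filter, fitted the 24 arrays together, used a trended robust prior, averaged the probes of each gene, took names from 1 table, and left out each array. A fit with values below the lowest detected signal of their array raised to it was added after seeing the data. Males enter only as levels, and TgUmodC147W females as a comparison.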

Additional observations from a re-analysis of the deposited data

Results flagged for a closer look

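In 17 of 204 groups of 4 values tested, 1 value stood apart from the other 3 by Dixon's criterion, which chance meets in about 1 in 20 groups. At 2 months these were *Cdkn3* in replicate 1 (6.88, others 5.78 to 5.91), *Tef* in replicate 1 (11.0, others 11.38 to 11.44), *Gnmt* in replicate 2 (11.13, others 10.77 to 10.81), *Mcm6* in replicate 2 (5.74, others 6.39 to 6.52), *Rad51ap2* in replicate 4 (5.57, others 6.26 to 6.40) and *Ces1f* in replicate 1 (11.54, others 11.21 to 11.23). At 1 month, replicate 2 stood apart for *Plxdc1* (5.29, others 5.5 to 5.53), *Serpina6* (12.05, others 10.92 to 11.05), *Nid2* (10.04, others 9.68 to 9.70) and *Mcm6* (8.37, others 7.53 to 7.64). Replicate 3 stood apart for *Aqp4* (10.85, others 11.48 to 11.54), *Fgf1* (9.47, others 10.30 to 10.35) and *Klf4* (7.84, others 7.47 to 7.52). Replicate 4 stood apart for *Kynu* (10.82, others 10.38 to 10.42), *Igfals* (11.63, others 11.02 to 11.11), *Afmid* (9.96, others 10.06 to 10.08) and *Cyp4a14* (13.6, others at 13.56).

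For 19 of the genes in the text the age difference itself differed between TgUmodwt and TgUmodC147W females by limma's interaction test. As TgUmodwt minus TgUmodC147W, the differences of the age differences were -1.51 for *Cyp4f14*, -1.24 for *Slc17a2*, -2.68 for *C8a*, -1.04 for *Agmat*, 1.93 for *Serpina6*, -0.88 for *Cdc20*, -3.04 for *Cyp2a5*, 2.38 for *Alas2*, 2.07 for *Serpina10*, 1.95 for *Rad51ap2*, 1.94 for *Cyp27b1*, -4.97 for *Sec14l3*, -4.73 for *Ly6f*, -3.94 for *Scgb1c1*, -3.80 for *Ces1f*, -3.39 for *Cyp2a4* and 0.90 for *Cdt1*. *Per3* differed by 1.31, with an age difference of 0.94 in TgUmodwt and -0.38 in TgUmodC147W, and *Cyp4a14* by 0.71, with 0.38 in TgUmodwt and -0.33 in TgUmodC147W. With values raised to the lowest detected signal of their array, the interactions of *Cyp4f14* (-0.13, adjusted p = 0.912) and *Cyp27b1* (0.87, adjusted p = 0.25) did not pass, and those of *C8a*, *Sec14l3*, *Ly6f*, *Scgb1c1* and *Rad51ap2* were -1.75, -3.77, -3.89, -2.89 and 1.73.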

How the results depend on the processing

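The count of 159 higher genes was 647 under scaling to a common median, 102 with no detection filter, 253 in a single fit over 24 arrays and 74 to 129 without any 1 array. The count of 179 lower genes was 108 to 164 without any 1 array. Over 2-fold, the 20 higher genes were 9 in the authors' table, 9 without background correction, 37 under a common median and 19 to 23 without any 1 array, and the 49 lower genes were 24, 24, 45 and 41 to 56. With unit variance per probe the first principal component held 28.3% and no longer separated the ages (exact permutation p = 0.343, against 0.0286 without that scaling). The 132 interactions were 58 to 305 without any 1 array. The sign turned for *Ces1f* (0.05 under a common median), *Umod* (0.01 as the mean of its probes, -0.06 to 0.03 without any 1 array) and *Cyp27b1* (-0.16 to 0.26 without any 1 array, 0.00 without 1-month replicate 1), none of which was called with age in TgUmodwt. The causes were not tested. With values raised to the lowest detected signal of their array, an alternative chosen after seeing the data, 160 genes were higher, 160 lower, 14 and 33 over 2-fold, and 187 interactions passed.

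With the replicate number as a block for pairing, 213 genes were higher and 225 lower, 21 and 49 of them over 2-fold, and 109 interactions passed. Under that block *Abcc4* (limma adjusted p = 0.0603), *Mme* (0.0526) and *Tef* (0.067) lost their calls. Of 88 named called genes, 58 kept their call without each array and 32 lost it under at least 1 other setting, 23 of them under a setting other than no detection filter. With 4 arrays an age and dim probes bounded by the background, differences in low genes are compressed.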
